A study of Rapana venosa with 9 samples.

Results

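The set described here holds 73 genes whose transcript level peaked in competent larvae. They were assembled from samples of the veined rapa whelk, Rapana venosa, and whether each is a gene of the whelk was not tested. They were taken from the deposited table of predicted miRNA-target pairs, which lists 11401 genes, so that they made up 0.64% of it. The genes were chosen by their FPKM: the value in competent larvae had to be at least 10 and at least 3 times the value plus 0.1 in each of the other stages. FPKM counts the fragments of a gene relative to its length and to the depth of the library. In this table it is 1 authors' mean per stage from an earlier transcriptome study, with no value per library. The peak was therefore used to choose the genes, and its size is a description without a test. The gene c135194_g1 was left out by the rule, although with 0.783, 2.54 and 1.25 FPKM in precompetent larvae, competent larvae and postlarvae it would not have met the limits.

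The small RNA data came from 3 stages with 3 replicates each. Precompetent larvae (Pre-CL) had 3 spiral whorls, competent larvae (CL) had 4, and postlarvae (PL) were juveniles. All were offspring of parents from a wild population, raised in 1 hatchery where the planktonic larvae were fed microalgae, and each replicate was described as 40 to 100 individuals, although the extraction notes name the intestine of an individual. Whether the 3 replicates of a stage came from separate cultures is not given, so that the p-values measure only the spread between these samples. The 9 libraries held 3762511 to 6781384 counts on miRNA references, out of 8235539 to 10694742 clean reads.

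Competence is the state in which a planktonic larva has finished the growth it needs and can settle and metamorphose once it meets a suitable cue. In the rapa whelk the planktonic larva feeds on microalgae, and the settled juvenile is a predator of bivalves. A miRNA is a short RNA that guides a silencing complex to messenger RNAs, mainly through its seed, bases 2 to 8 from its 5′ end, and usually lowers their level or translation. An inverse pair is therefore a gene with a predicted site whose level moved against that of the miRNA.

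The authors kept only inversely correlated pairs of the 195 miRNAs they had called, with the correlation computed between a gene's stage means of FPKM and a miRNA's stage means in these same small RNA libraries. The 73 genes had 156 such pairs with 62 miRNAs. In 84 pairs the authors' correlation was -1, and in 72 it was -0.87, the value given by a tie between 2 stages. In all 156 pairs the miRNA's mean in competent larvae was the lowest or tied for the lowest, as the selection requires, and it was strictly the lowest in 104. The sequences below are those of the miRNAs on which the results turn, as deposited, written with T and with the seed in capitals.

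Among the miRNAs paired with most of the peaking genes and counted well in at least 1 stage were these.
miR-13-y: tATCACAGcctcttggatgagc
predicted miRNA, seed AGATTCA: cAGATTCActtgatctactgtgt
miR-5119-y: cTCATCACatcctggggctg
miR-307-y: tCACAACCtccttgaatgagtgt

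The miRNAs that were called both lower in competent larvae than in precompetent larvae and higher in postlarvae than in competent larvae were these.
miR-276-y: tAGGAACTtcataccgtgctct
miR-745-y: gAGCTGCCaaatgaagggctgt
miR-1986-y: tGGATTTCccaagatccgtgatt
predicted miRNA, seed ATCGGGC: gATCGGGCtttgcgtaggaagca

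References that share a seed are shown together, because they were predicted against overlapping sets of genes.
miR-8-y: tAATACTGtcaggtaaagatgt
miR-236-y: tAATACTGtcaggtaaagatgc
miR-200-z: tAATACTGtctggtaaagatgt
miR-200-y: tAATACTGccaggtaaagatgc
miR-141-y: tAATACTGtcgggtaaagatgc
miR-9-y: aTAAAGCTaggttaccaaagg
miR-79-y: aTAAAGCTaggttaccaaaggt

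The size of the peak differed widely among the genes. Levels in competent larvae lay between 10.3 and 134 FPKM with a median of 19.1, while the medians in precompetent larvae and postlarvae were 1.01 and 2.60 FPKM. The ratio of competent larvae to the higher of the other stages, each plus 0.1, had a median of 5.61 and reached 370; where both other stages are listed at 0, its size is set by the added 0.1. Just inside the limits lay c150316_g1 with 10.3 FPKM in competent larvae and c148270_g2 with a ratio of 3.00. Just outside lay c138244_g1 with 9.42 FPKM and c150318_g4 with a ratio of 2.996. The genes fell into 3 shapes, which were separated after their values had been seen. At or under 0.1 FPKM in both other stages lay 15 genes, here called present at CL only. A further 16 were nearly silent in precompetent larvae and retained part of their level in postlarvae, with a postlarval level plus 0.1 at least 5 times the precompetent level plus 0.1. The other 42 had a listed level in all stages and their maximum at competence. That level was low in some: 4 lay under 1 FPKM in precompetent larvae and 4 in postlarvae, with minima of 0.247 and 0.143 FPKM.

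**Figure D1:**
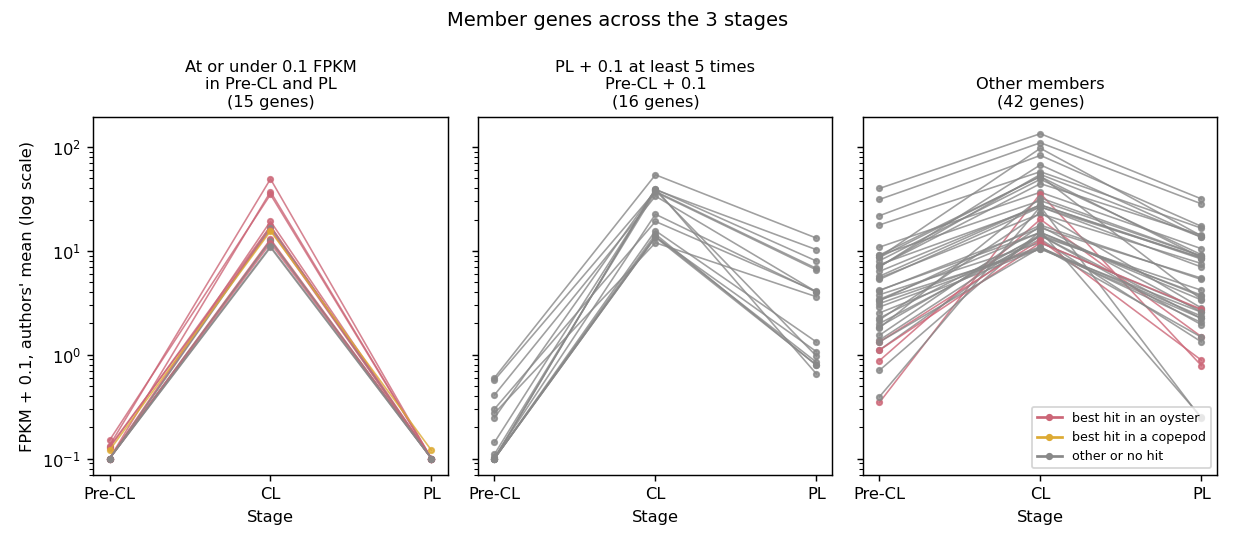
Authors' mean FPKM plus 0.1 (log axis) of the 73 genes by stage (Pre-CL, CL and PL), in 3 panels by shape; each line is 1 gene and its colour gives the animal group of its best database hit. The 15 genes at the left lie at the bottom of the axis in both other stages and most of them are drawn in the colour of an oyster hit, while the 42 genes at the right keep a level in every stage.

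Few of the genes could be named. A hit in the NCBI protein database (NR) was listed for 22 of the 73 (30.1%), against 42.2% of the whole table, and 17 had a Swissprot hit. No annotation of any kind was listed for 30 genes, and 17 had only a Pfam domain. Among the gene lists searched in the NR, Swissprot and KEGG descriptions, 4 of 185 channels and transporters and 1 of 213 cytoskeleton and cilia genes were members, against 0.64% of the table. The lists of proteases and inhibitors (115 genes), extracellular matrix and shell (67), neural and sensory signalling (90), cell death (36), immunity and stress (80), digestive hydrolases (51), transcription factors (70), mobile elements (48) and algal food (6) held no member. The lists were made by a search for words, so a list without a member does not show that the function is absent. Membership also needs 10 FPKM in competent larvae, which 3318 genes of the whole table reached. Among the lists without a member, from 1 (algal food) to 49 genes (proteases and inhibitors, immunity and stress) reached it. For digestive hydrolases it was 10, for transcription factors 13 and for cell death 9. The peroxidasin-like c155093_g1 and the microtubule-associated c155130_g1, both described below, were in no list.

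The 15 genes present at CL only were better annotated than the others: 10 of the 15 had a protein hit, against 12 of the other 58. For 10 of the 15 the best hit in at least 1 of the protein and nucleotide databases was in an oyster (Crassostrea or Ostrea), and 9 of their 10 protein hits were oyster proteins. Among the other 58 members, 4 had an oyster best hit. Of all 11401 genes listed, 790 (6.93%) did. These shares depend on how many genes were annotated. Among genes with a protein hit, that hit was in an oyster for 780 of 4806 (16.2%) in the whole table and for 3 of 12 among the other 58 members. The rapa whelk is a gastropod and oysters are bivalves, which are separate classes of mollusc. The grouping by best hit was chosen after the values were seen and was not tested.

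Some of the 15 were annotated as genes of the mitochondrial genome. They were picked out after their values were seen, and the share of such genes in the whole table was not counted. The mitochondrial genome encodes subunits of the respiratory chain and its own ribosomal RNAs. Cytochrome c oxidase subunit II (c173577_g1), which takes electrons from cytochrome c, had 0.05, 34.8 and 0 FPKM in precompetent larvae, competent larvae and postlarvae. Its nucleotide hit was the mitochondrial genome of the Pacific oyster Crassostrea gigas, with an alignment score of 704 for 704 assembled bases. NADH dehydrogenase 1 (c2725_g1), a subunit of respiratory complex I, had 0.027, 17.2 and 0 FPKM and a score of 1243 for 1243 bases against the same genome. NADH dehydrogenase 5 (c121252_g1), another complex I subunit, had 0.03, 15.9 and 0 FPKM and a score of 2165 for 2183 bases. These were all 3 genes of the table whose nucleotide hit was that genome.

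A further 2 of the 15 had a protein or nucleotide hit to a mitochondrial gene without an oyster hit. Cytochrome c oxidase subunit I (c133248_g1) had 0.02, 15.4 and 0.02 FPKM in the 3 stages with its best protein hit in the copepod Calanus and its nucleotide hit in a butterfly. The sequence c183351_g1 had 0, 10.7 and 0 FPKM. Its only annotation was a nucleotide hit to a mitochondrial ribosomal RNA gene of an annelid, Dinophilus, with a score of 406 for 1078 bases. The sequence c13215_g1 had no such hit and was annotated only with Pfam domains. These were NADH-ubiquinone/plastoquinone oxidoreductase chain 4L and a polyomavirus coat protein, and its levels were 0, 16.5 and 0 FPKM. For comparison, the 1 sequence of the table that matched the mitochondrial genome of the rapa whelk itself (c33599_g1, score 1341 for 1378 bases) had 3868, 2802 and 2521 FPKM in precompetent larvae, competent larvae and postlarvae.

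The named nuclear genes of this shape have general functions in the cell. The small-subunit ribosomal protein S27 (c134126_g1) had 0, 37.0 and 0 FPKM, with a score of 449 for 559 bases against the oyster mRNA. The Y-box factor (c88469_g1), a cold-shock domain protein that binds nucleic acids, had 0, 12.6 and 0 FPKM. The ADP/ATP carrier (c51190_g1), which exchanges these nucleotides across the inner mitochondrial membrane, had 0, 11.8 and 0 FPKM. The highest of the 15 was c135022_g1, with 0.033, 49.2 and 0 FPKM and a nucleotide hit to an oyster mRNA for a hypothetical protein, with a score of 113 for 980 bases. The oyster-hit genes c147224_g1, c143691_g1 and c133340_g1 had 19.2, 17.2 and 12.9 FPKM in competent larvae and 0 FPKM in both other stages. Of the remaining 2, c97632_g1 (12.4 FPKM in competent larvae) had a weak nucleotide hit in a fish and c108499_g1 (10.9 FPKM) had no annotation, and both were listed at 0 FPKM elsewhere.

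The 4 oyster-hit members outside this group had low but measurable levels in the other stages. Actin (c146513_g2), the filament protein of muscle and the cytoskeleton, had 0.247, 35.5 and 0.687 FPKM, and its nucleotide hit was C. gigas actin with a score of 515 for 617 bases. Ferritin (c153221_g1), an iron-storage protein, had 0.777, 20.04 and 1.39 FPKM. An organic anion transporter (c151423_g1) had 1.01, 11.9 and 2.64 FPKM, and a protein like the adipocyte plasma membrane-associated protein (c155921_g1) had 1.23, 12.7 and 0.787 FPKM.

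Over the whole table, these members included, 172 genes had at least 1 FPKM in competent larvae and at most 0.1 in both other stages, and 100 of them (58.1%) had an oyster best hit and 11 a copepod best hit. The same limits applied to precompetent larvae gave 44 genes and applied to postlarvae gave 9, and neither set held an oyster or a copepod best hit. Both sets were poorly annotated, however. A protein hit of any kind was listed for 15 of the 44 and 1 of the 9, against 125 of the 172. A nucleotide hit was listed for 1 of the 44 and 0 of the 9, against 58 of the 172. Of the 16 genes of the table whose nucleotide score reached 0.8 per assembled base, 14 were oyster hits, all 14 were highest in competent larvae, and 5 of them were members. The part of RNA from another animal in these peaks was not tested, and it cannot be told apart from the whelk's own transcripts by FPKM alone. The list of algal genes, which stands for the larval diet, held no member, but it had only 6 genes in the table, of which 1 reached 10 FPKM in competent larvae.

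**Figure D2:**
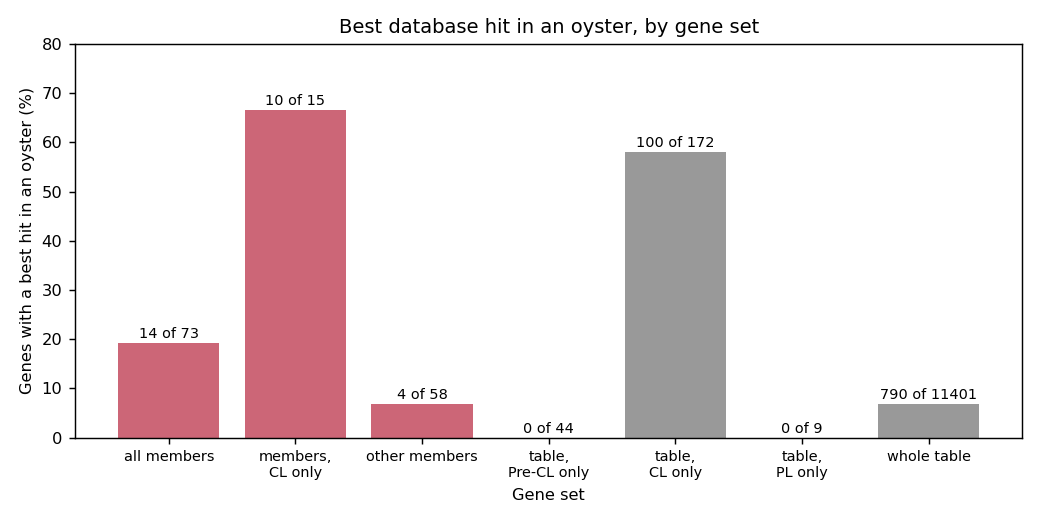
Percent of genes whose best protein or nucleotide hit was in an oyster, for the members (red) and for sets of the whole table (grey), with the number of genes above each bar; "only" means at or under 0.1 FPKM in both other stages. The members present at CL only (10 of 15) and all genes of the table present at CL only (100 of 172) stand above all genes listed (790 of 11401). The sets for Pre-CL and PL are at 0, but only 15 of 44 and 1 of 9 of their genes had any protein hit.

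The remaining 58 members held no copepod hit and 29 of them had no annotation. The highest levels of the set were among the 42 genes with a listed level in every stage. The unannotated c75060_g1 had 39.8, 134 and 31.6 FPKM in precompetent larvae, competent larvae and postlarvae, and the unannotated c128430_g1 had 31.2, 110 and 28.3 FPKM. The gene c148044_g1, with a Pfam domain of the organic anion transporter polypeptide family, had 8.62, 97.3 and 13.9 FPKM. The unannotated c96335_g1 had 21.7, 83.0 and 17.1 FPKM. In these genes competent larvae had between 3.37 and 6.97 times the higher of the other stages, each plus 0.1.

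The channel and transporter list was the only list with more than 1 member. A sodium bicarbonate cotransporter (c150573_g5), a membrane carrier that moves bicarbonate and so regulates pH, had 17.7, 57.8 and 16.5 FPKM, and its best hit was in the sea hare Aplysia, a gastropod. A proton-associated sugar transporter (c153490_g2) had 1.28, 14.0 and 1.85 FPKM and also an Aplysia hit. With the organic anion transporter c151423_g1 and the ADP/ATP carrier c51190_g1 above, whose best hits were in oysters, these were the 4 members of the channel and transporter list. The other genes among the 15 highest were c139777_g1, c126941_g1, c131677_g2, c138611_g1, c146577_g3 and c143767_g5, with 67.3, 54.4, 52.4, 51.8, 48.8 and 44.3 FPKM in competent larvae, and none had a protein hit.

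In the 16 genes that were nearly silent in precompetent larvae, part of the level remained after metamorphosis. Their median was 0.007 FPKM in precompetent larvae, 28.0 in competent larvae and 3.71 in postlarvae, and none had an oyster or copepod best hit. The unannotated c106817_g1 had 0.5, 54.0 and 13.2 FPKM, c125195_g1 had 0, 39.7 and 0.553 FPKM, and c124310_g2 had 0, 39.2 and 7.88 FPKM. A few of the annotated genes of this shape are given here although they fell outside the rule for named genes. The peroxidasin-like c155093_g1, of a family of haem peroxidases that cross-link collagen in basement membranes of other animals, had 0.043, 38.1 and 0.87 FPKM. Protein hits were also listed for c143456_g1 (0.47, 37.4 and 6.68 FPKM) and c148607_g1 (0.2, 19.1 and 3.96 FPKM), but to hypothetical or uncharacterized proteins. The gene c133827_g2 had 0.31, 33.6 and 3.93 FPKM. Its only annotation was a Pfam domain of conotoxins, the venom peptides of cone snails, without a protein or nucleotide hit.

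The 62 paired miRNAs were spread thinly over the genes. Of the 73 genes, 44 had only 1 paired miRNA, and the median was 1 pair per gene, against 2 over the whole table. The most pairs, 21, belonged to c155130_g1, whose best hit was a microtubule-associated protein like futsch, a cytoskeletal protein of axons in Drosophila. With 8972 assembled bases it was also the longest member, and it had 4.08, 14.9 and 3.27 FPKM in the 3 stages. Next came c142718_g1 and c150503_g1 with 8 pairs each. References that share a seed are counted separately here. The 21 pairs of c155130_g1 include miR-8-y, miR-236-y, miR-200-z and miR-200-y, which share 1 seed. The 44 genes with 1 pair had a median length of 998 bases, the 14 genes with 2 pairs had 1415, and the 15 genes with at least 3 pairs had 1304.

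Many of the paired miRNAs were counted rarely. No library of competent larvae held a count for 30 of the 62, and in 13 of the 62 no library reached 10 counts. The deposited table of 8262 values held 4891 zeros, 792 values of 2 and no value of 1, so that a listed 0 may stand for 0 or 1 tag, and no fold change is given against a stage listed at 0. The miRNAs paired with most genes included several of this kind. The predicted miRNA with seed TGTGTTC was paired with 7 genes on counts of 2, 4 and 3 at Pre-CL, 0, 0 and 0 at CL and 0, 0 and 2 at PL. A further 3 miRNAs paired with 6 genes each, the predicted miRNA with seed GTTTCTC, miR-303-y and miR-5307-x, had at most 5 counts in any library and none in competent larvae or postlarvae. Another 14 were listed at 0 in every library of both larval stages, 9 of them references of 18 nt, the shortest length in the table, and none of these 14 exceeded 69 counts in a postlarval library. References of 18 nt made up 40.6% of all 918 references and 25.8% of the 62 paired miRNAs.

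The counts were tested with edgeR's quasi-likelihood test over all 214 miRNAs that passed a filter on low counts, with a call at a Benjamini-Hochberg adjusted p under 0.05 and a fold change over 2. Of the 62 paired miRNAs, 44 passed the filter. Among them 9 (20.5%) were called lower in competent larvae than in precompetent larvae, against 9.35% of all tested miRNAs. That count was 5 without CL replicate 1 or CL replicate 3 and reached 13 without Pre-CL replicate 3. Between postlarvae and competent larvae, 26 of the 44 (59.1%) were called higher in postlarvae, against 22.4% of all tested. Both counts describe the authors' choice of pairs, which used the same libraries and required a low mean in competent larvae, and they support nothing about the genes. The 13 tested miRNAs with no count in competent larvae could pass the filter only through another stage. In 13 of the 44 all libraries of competent larvae lay below all libraries of precompetent larvae (17.3% of all tested), in 36 they lay below all postlarval libraries (33.6%), and in 7 both held (5.14%).

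**Figure D3:**
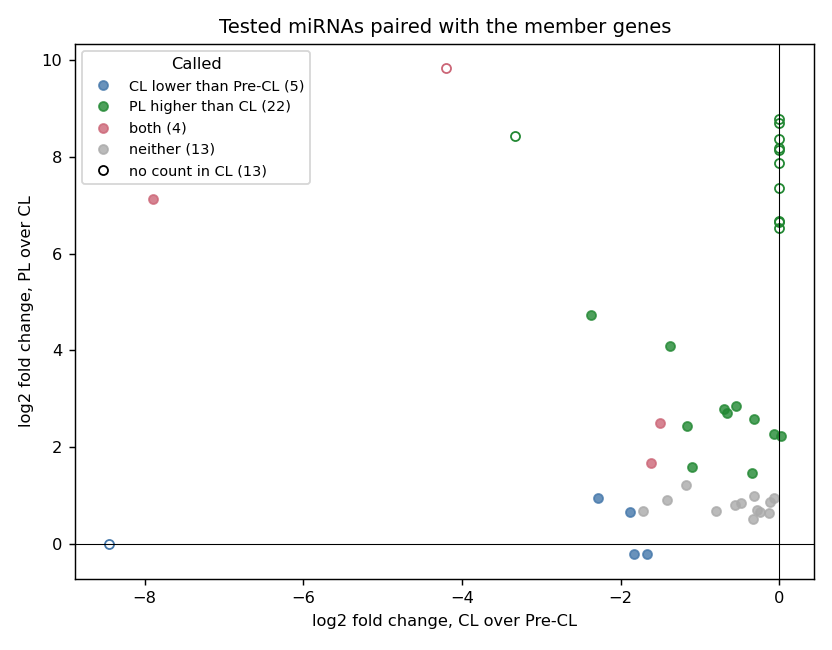
Fitted log2 fold changes of the 44 tested miRNAs paired with the members, for CL over Pre-CL (horizontal axis) and PL over CL (vertical axis); colours give the calls and open circles are the 13 miRNAs with no count in CL, whose fitted size depends on a prior count. The 4 miRNAs called in both steps lie at the upper left, and 22 called only as higher in PL lie above the horizontal line.

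A trough at competence that passed the test on both sides was found in 4 paired miRNAs (3.74% of all tested miRNAs were called in this way). In miR-276-y the counts were 96, 565 and 132 at Pre-CL, 3, 0 and 0 at CL and 93, 270 and 170 at PL. The competent larvae thus lay far below both other stages, and all 3 of their counts came from CL replicate 1. PL over CL came to 155 (95% counting interval 52.9 to 756) and Pre-CL over CL to 274 (interval 93.5 to 1332); these intervals cover counting error only, and the ratios take a listed 0 as 0, so that they would be smaller if it stood for 1 tag. The larval difference leaned on Pre-CL replicate 2, which had 90.8 CPM, against 18.0 and 30.5 CPM in the other precompetent libraries. Without it the fitted log2 fold change of competent over precompetent larvae was -6.84 (edgeR adjusted p = 0.0061), against -7.89 with it, and without CL replicate 1 no count of competent larvae was left. The adjusted p values from edgeR were 0.0027 for competent over precompetent larvae and 8.2e-04 for postlarvae over competent larvae. The miRNA miR-276-y was paired with c133827_g2, annotated only with a Pfam domain of conotoxins, and with c143767_g5 (7.04, 44.3 and 14.1 FPKM).

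The abundant miR-745-y had counts of 7014, 7038 and 2291 at Pre-CL, 1797, 2068 and 1395 at CL and 4373, 6845 and 8371 at PL. As CPM, counts scaled to the normalized library size, this was 991 ± 409, 324 ± 63.2 and 1037 ± 250 (SD, n = 3 each). The log2 fold change was -1.61 (standard error 0.35, edgeR adjusted p = 0.012) for competent over precompetent larvae and 1.68 (standard error 0.35, edgeR adjusted p = 0.0041) for postlarvae over competent larvae. The first call did not hold without CL replicate 1 (edgeR adjusted p = 0.054) or CL replicate 3 (edgeR adjusted p = 0.051), within a range of 1.4e-04 to 0.054 over the alternative fits. Its only pair among the members was c133340_g1, an oyster-hit gene present at CL only.

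In miR-1986-y the counts were 74, 61 and 24 at Pre-CL, 15, 17 and 22 at CL and 92, 130 and 143 at PL. The log2 fold change for postlarvae over competent larvae was 2.49 (standard error 0.45, edgeR adjusted p = 0.0020). That for competent over precompetent larvae was -1.50 (standard error 0.44, edgeR adjusted p = 0.037), but it missed the threshold in 11 of 15 alternative fits (adjusted p from 0.0074 with DESeq2 to 0.18 with edgeR), among them the fits without any 1 of the CL or PL libraries, Pre-CL replicate 1 or Pre-CL replicate 2. The miRNA was paired with the bicarbonate cotransporter c150573_g5 with c138611_g1, which had a Pfam domain of unknown function, and with the unannotated c7708_g1.

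The fourth was the predicted miRNA with seed ATCGGGC, with 2, 2 and 2 counts at Pre-CL, 0, 0 and 0 at CL and 118, 97 and 148 at PL. It was thus at or near the limit of detection in both larval stages, and the postlarvae lay above (edgeR adjusted p = 1.1e-04 for postlarvae over competent larvae). The filter was passed only through postlarvae, so the direction of that p-value was fixed in advance. The call between the larval stages (edgeR adjusted p = 0.020) rests on 6 tags in all and missed the threshold with DESeq2 (adjusted p = 0.052), without the filter on low counts (edgeR adjusted p = 0.061) and without any 1 of the CL libraries (edgeR adjusted p = 0.055 to 0.081), within a range of 0.018 to 0.081 over the alternative fits. It was paired with c108499_g1, present at CL only, and with c54373_g1, which had a Pfam domain of the CD20-like family.

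Of the 9 miRNAs called lower in competent than in precompetent larvae, the other 5 were not called higher in postlarvae. The most widely paired, miR-13-y, with 7 genes, had counts of 122, 132 and 40 at Pre-CL, 25, 19 and 16 at CL and 35, 63 and 35 at PL. Its level was 17.8 ± 7.41, 3.63 ± 0.0556 and 6.97 ± 1.42 CPM in the 3 stages (SD, n = 3 each). All libraries of competent larvae lay below all libraries of both other stages. The log2 fold change was -2.28 (standard error 0.41, edgeR adjusted p = 0.0051) for competent over precompetent larvae, which was called in every alternative fit, and 0.94 (standard error 0.40, edgeR adjusted p = 0.092) for postlarvae over competent larvae. It was paired with the oyster-hit c147224_g1, with c108499_g1 and with 5 members that were expressed in other stages too.

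The predicted miRNA with seed AGATTCA had 93, 119 and 61 counts at Pre-CL, 33, 30 and 24 at CL and 25, 35 and 26 at PL. It was lower in competent than in precompetent larvae (log2 fold change -1.66, standard error 0.29, edgeR adjusted p = 0.0051), and no later recovery was detected (log2 fold change -0.21, standard error 0.29, edgeR adjusted p = 0.56). All 6 of its genes were expressed in at least 1 other stage. In miR-5119-y the counts were 119, 361 and 182 at Pre-CL, 43, 89 and 50 at CL and 68, 70 and 42 at PL. The log2 fold change for competent over precompetent larvae was -1.83 (standard error 0.50, edgeR adjusted p = 0.027), and it missed the threshold when CL replicate 1, CL replicate 3 or Pre-CL replicate 2 was left out (edgeR adjusted p = 0.070 to 0.072), within a range of 0.0012 to 0.072 over the alternative fits. Its 5 genes included the oyster-hit actin c146513_g2. In both miRNAs the stage means of the authors' TPM, the deposited tag counts scaled per library, placed competent larvae lowest or tied, while the normalized counts of competent larvae and postlarvae overlapped.

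The last of these 5 fell outside the rule for named miRNAs and are given to complete the set. In miR-1990-x the counts were 765, 1087 and 747 at Pre-CL, 320, 254 and 170 at CL and 343, 449 and 527 at PL. Its level was 164 ± 17.7, 44.6 ± 5.40 and 70.6 ± 12.0 CPM (SD, n = 3 each), and all libraries of competent larvae lay below all libraries of both other stages. For competent over precompetent larvae its log2 fold change was -1.87 (standard error 0.25, edgeR adjusted p = 0.0027), which was called in every alternative fit. That for postlarvae over competent larvae was 0.66 (standard error 0.24, edgeR adjusted p = 0.049), under the fold limit, and it missed the threshold in 10 of 15 alternative fits (adjusted p from 0.0038 to 0.53, all from edgeR or DESeq2), among them the fits without any 1 of the CL or PL libraries. It was paired with c142718_g1 and c90318_g1. The predicted miRNA with seed GTAGCTT had 44, 70 and 15 counts at Pre-CL and was listed at 0 in all libraries of competent larvae and postlarvae (edgeR adjusted p = 0.0055 for competent over precompetent larvae). This miRNA passed the filter only through precompetent larvae, so the direction of its p-value was fixed in advance. It was paired with c142718_g1 and with c106817_g1.

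**Figure D4:**
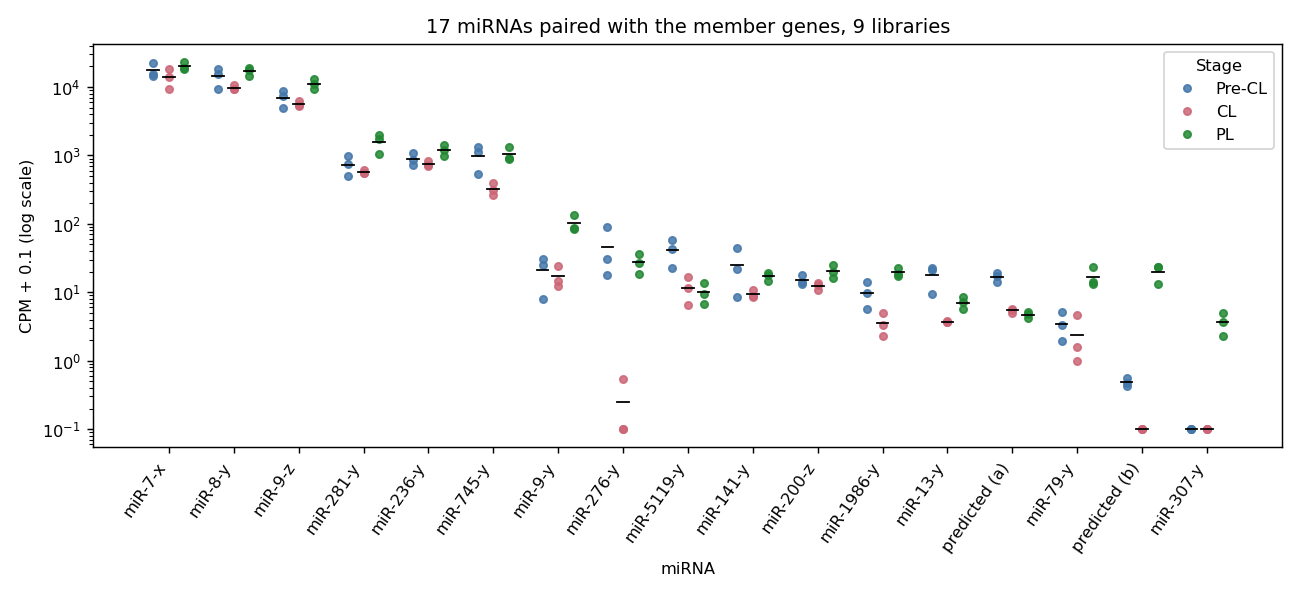
CPM plus 0.1 (log axis) of the 17 named miRNAs paired with the members, ordered by mean level; each point is 1 library, coloured by stage, and the black bar is the stage mean. The predicted miRNA marked (a) has seed AGATTCA and (b) has seed ATCGGGC. In miR-276-y, miR-745-y, miR-1986-y, miR-13-y and (b) all CL libraries lie below all libraries of both other stages, and miR-7-x, miR-8-y and miR-9-z are the most abundant.

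The family with seed AATACTG had 21 pairs with 8 genes, more pairs than any other seed. It comprised 5 of the paired references, each within 2 mismatches of at least 3 of the others. Since tags were aligned with up to 2 mismatches, how reads were split between them is uncertain. The most abundant, miR-8-y, had 81939, 115196 and 40491 counts at Pre-CL, 63488, 56512 and 41184 at CL and 87714, 108226 and 120609 at PL. In CPM this was 14402 ± 4645, 9787 ± 781 and 17011 ± 2401 (SD, n = 3 each), and the libraries of both larval stages overlapped. The log2 fold change was -0.56 (standard error 0.25, edgeR adjusted p = 0.16) for competent over precompetent larvae and 0.80 (standard error 0.25, edgeR adjusted p = 0.029) for postlarvae over competent larvae, under the fold limit of a call and with an adjusted p from edgeR or DESeq2 of 0.0030 to 0.12 over the alternative fits. The CPM of miR-236-y were 883 ± 176, 748 ± 60.6 and 1186 ± 220 in the 3 stages, those of miR-200-z 14.9 ± 2.57, 12.3 ± 1.47 and 20.1 ± 4.36, and those of miR-141-y 24.7 ± 18.1, 9.26 ± 1.19 and 17.2 ± 2.26 (SD, n = 3 each). The CPM of miR-200-y were 8.98 ± 3.40, 6.42 ± 2.60 and 11.6 ± 2.42 (SD, n = 3 each). For postlarvae over competent larvae miR-236-y had a log2 fold change of 0.67 (edgeR adjusted p = 0.036, from 0.0039 to 0.33 over the alternative fits with edgeR or DESeq2), under the fold limit. With TMM normalization of all libraries, none of the 5 was called in either step. With total miRNA counts as library size, 4 of the 5 were called higher in postlarvae than in competent larvae, namely miR-8-y (log2 fold change 1.37), miR-236-y (1.23), miR-200-z (1.27) and miR-200-y (1.38), with edgeR adjusted p of 0.0039 to 0.043. With clean reads as library size miR-8-y was called in that step (1.06, edgeR adjusted p = 0.020), and without Pre-CL replicate 3 miR-141-y was called lower in competent than in precompetent larvae (-1.85, edgeR adjusted p = 0.0060). Their genes included the unannotated c128430_g1, the ADP/ATP carrier c51190_g1 and c13215_g1, annotated only with Pfam domains.

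The references miR-9-y and miR-79-y, which share seed TAAAGCT and differ only by 1 terminal base, were paired with 5 genes. Of these, 4 were present at CL only: NADH dehydrogenase 1 and 5, the Y-box factor and c183351_g1, with its hit to a mitochondrial ribosomal RNA. The counts of miR-9-y were 134, 193 and 34 at Pre-CL, 99, 128 and 55 at CL and 419, 664 and 860 at PL. The larval stages overlapped, and the postlarvae lay above both. The log2 fold change was 2.59 (standard error 0.53, edgeR adjusted p = 0.0035) for postlarvae over competent larvae and -0.32 (standard error 0.50, edgeR adjusted p = 0.71) for competent over precompetent larvae. For miR-79-y these values were 2.85 (standard error 0.64, edgeR adjusted p = 0.0055) and -0.54 (standard error 0.62, edgeR adjusted p = 0.59). Neither miRNA passed the test between the larval stages.

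Of the other named miRNAs, miR-307-y was paired with 5 genes, among them the oyster-hit cytochrome c oxidase subunit II, and was listed at 0 in all 6 larval libraries and at 11, 27 and 31 counts in postlarvae (edgeR adjusted p = 0.0025 for postlarvae over competent larvae). It passed the filter only through postlarvae, so the direction of that p-value was fixed in advance. The remaining 3 were abundant miRNAs whose only pair among the members was c155130_g1. The counts of miR-7-x ranged from 49927 to 136921 over the libraries, and its log2 fold changes were -0.33 (standard error 0.27) for competent over precompetent larvae and 0.52 (standard error 0.27) for postlarvae over competent larvae, neither past the test. In miR-9-z they were -0.31 (standard error 0.23) and 0.98 (standard error 0.23), and in miR-281-y -0.35 (standard error 0.30) and 1.46 (standard error 0.31). For miR-9-z and miR-281-y the difference between postlarvae and competent larvae passed the test (edgeR adjusted p = 0.0072 and 0.0041), and only that of miR-281-y also exceeded the fold limit.

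The share of pairs with a tie differed between the shapes, but this is mostly built into the shapes. The 15 genes present at CL only had 32 pairs, of which 9 had an authors' correlation of -1 and 23 had a tie between 2 stages, whereas the other 58 genes had 75 and 49. Of the 15 genes, only 4 had a higher level in precompetent larvae than in postlarvae, and 0 had the reverse. The rest, 10 of them listed at 0 in both stages, have a tie of their own. The count of ties thus follows mostly from the shape, and a difference in the kind of pair was not tested. Taken over all shapes, 46 of the 73 genes (63.0%) had a pair with at least 1 miRNA called lower in competent larvae than in precompetent larvae or higher in postlarvae than in competent larvae, against 54.6% of the 11401 genes of the table. Only miRNAs too rare to be tested were paired with 19 of the 73.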

How the data were processed

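Per the authors' methods, small RNAs of 18 to 30 nt were sequenced, other RNA classes were removed, and what remained was matched to miRBase, or to miRNAs they predicted, with at most 2 mismatches. The authors deposited raw tag counts of 918 references, and a TPM score that was not used in tests because 0 is written as 0.01 and the scale does not match the stated formula. The FPKM deposited by the authors are stage means, each a whole multiple of 0.01 divided by 3 (100% of 32165 values between 0 and 100, tolerance 0.02 of a step). The deposited correlation score of each pair was computed by the authors over stage means. The deposited columns of the authors' fold changes and p-values were not used, and 0 columns of per-sample values were left unmapped. Targets had been predicted by the authors in an assembled transcriptome, whose sequences were not used here.

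Members were found by the rule with Python 3.11.15, pandas 2.3.3 and numpy 2.4.6. The test of counts used edgeR 4.0.16 (R 4.3.3): TMM normalization (factors 0.733 to 1.50), filterByExpr, 1 quasi-likelihood fit over 9 libraries, two-sided contrasts between stages, Benjamini-Hochberg adjustment over 214 miRNAs (biological coefficient of variation 0.456). Standard errors were obtained by dividing the log2 fold change by the root of F. The steps were tested on simulated data. The depth was 3762511 to 6781384 counts per library. Named genes were the 15 with the highest FPKM in competent larvae, the 10 with the largest ratio and up to 4 per gene list. Named miRNAs were the 10 paired with most members and having 10 counts or more in every library of some stage, the 5 with the highest mean CPM and those called on both sides of competence. Members, lists and rules were chosen with earlier results of these data known. Alternatives were total miRNA counts or clean reads as library size, DESeq2 1.42.0, no filter, only the 6 libraries compared, a replicate block, each library left out, no fold limit, unadjusted p and other limits of the gene rule. Leaving out oyster and copepod best hits was chosen after seeing the data. Figures were drawn with matplotlib 3.10.9.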

Additional observations from a re-analysis of the deposited data

How the results depend on the processing

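The gene set depends on its limits: a minimum of 5 FPKM gave 154 genes and one of 20 FPKM gave 35, and a factor of 2 gave 245 genes and one of 5 gave 41, while adding 0.01 or 1 FPKM gave 75 or 59 genes. Without oyster and copepod best hits, an alternative chosen after seeing the data, 58 genes remained, and their miRNAs gave 8 calls lower in competent than in precompetent larvae and 22 higher in postlarvae than in competent larvae. Leaving out 1 library at a time gave 5 to 13 calls of the first kind (5 without CL replicate 1 or CL replicate 3) and 25 to 30 of the second. The replicate numbers did not pair the samples, as same-numbered libraries correlated by -0.28 to 0.29 in their deviations from the stage means, and with the replicate block the counts were 8 and 22. Total miRNA counts as library size moved the median log2 fold change of postlarvae over competent larvae by 0.59 over all tested miRNAs, and clean reads by 0.29. With total counts 38 paired miRNAs were called higher in postlarvae, and 81.7% of all calls of that step were higher, against 60.8% with TMM. Of 597 alternative log2 fold changes of the miRNAs described, 538 kept their side of the test, 46 fell short of it, 13 newly passed it and 0 reversed. Depth limits the rare miRNAs, and the genes have no replicate values at all.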

Other observations

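Below the limit of 10 FPKM lay 157 further genes of at least 1 FPKM in competent larvae and at or under 0.1 in both other stages, and 90 of them had an oyster and 10 a copepod best hit. The share of oyster best hits among all genes of this shape was 22 of 49 between 1 and 2 FPKM, 49 of 81 between 2 and 5, 19 of 27 between 5 and 10, and 10 of 15 from 10 FPKM. Examples just below the limit are c138244_g1, whose best hit was an oyster phospholipase D1, with 0, 9.42 and 0 FPKM in precompetent larvae, competent larvae and postlarvae, and c105224_g1, whose best hit was an oyster ribosomal protein, with 0.087, 9.21 and 0.083 FPKM. These genes were chosen after their values were seen.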
